A study of Homo sapiens with 6 samples.

Results

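Genes known to be switched on by p53 were examined in MDA-MB-231, an established line of triple-negative human breast cancer cells with a mesenchymal shape and gene expression. They were chosen by name from a list of 29 known p53 targets, and each was read by the probe set that the array's annotation pairs with its symbol. Of the 29 genes, 27 had such a probe set, out of 18378 genes tested. Each of the 27 was read by 1 probe set that names no other gene, so no choice between probe sets was needed. BTG2 and FDXR were not analysed here.

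The series compared cells transfected with GHSROS in the pTargeT mammalian expression vector and cells transfected with pTargeT alone, with 3 cultures per group, each on 1 Affymetrix Human Gene 1.0 array. GHSROS, a long noncoding RNA, comes from the ghrelin receptor gene and is read from its opposite strand. All cultures were grown in the same serum-containing medium, and the labels do not say whether the transfection was stable or transient or whether single clones were used. The values are log2 expression after RMA (robust multi-array average), so a difference of 1 is a 2-fold difference, and the 6 array medians lay between 6.559 and 6.648.

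The transcription factor p53 is stabilised when DNA is damaged or cells are stressed, and it then binds response elements made of a pair of decamers near its targets. Those targets stop the cell cycle, repair DNA, change metabolism or start apoptosis, and some of them, MDM2 first of all, shut p53 down again. MDA-MB-231 is known to carry a missense mutation in the DNA-binding domain of p53 and to have lost CDKN2A, whose ARF product restrains MDM2. Many p53 targets also answer to other factors, so their RNA can be present where p53 cannot bind DNA. The p53 gene itself was not analysed here, and these arrays give no reading of the mutation.

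The markers of the line were present in part beside those of other cell types. Of 8 mesenchymal markers, 7 were above the array median on every array, with VIM and CD44 at 12.88 or more, and SPARC was below it at 5.86 to 6.64. Of 10 luminal markers, 6 were above the median on every array, among them the keratins KRT8 (12.05 to 12.15) and KRT19 (11.56 to 12.11) and ERBB2 (8.81 to 8.99), while ESR1 and CDH1 were at 5.35 or less. Of 5 leukocyte markers, the lysosomal gene CD68 was bright (12.06 to 12.66) and the other 4, PTPRC included, were below the median on every array, as were 5 of 6 fibroblast markers. CDKN2A read between 6.44 and 6.72 on the 6 arrays, near the array medians, so a reading at that level does not show that a transcript is present. The luminal marker FOXA1, counted above the median, read from 6.68 to 7.15, which overlaps that range. It differed between GHSROS and empty-vector cells by 0.35 (SE 0.08) and did not pass the test described below. SPATA18, which encodes a protein of mitochondrial quality control, was the one p53 target below the array medians on every array, at 4.55 to 4.76, and differences of so dim a probe set can be compressed.

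None of the p53 targets passed the test between GHSROS cells and empty-vector cells. In limma, with Benjamini-Hochberg adjustment over all 18378 genes, 0 of 27 reached an adjusted p of 0.05, and over all genes tested the share called was 0%. Every adjusted p was 1. At an unadjusted threshold of 0.05, 0 of the 27 were higher with GHSROS, against 0.974% of all genes, and 0 were lower, against 0.794%. Log2 differences ran from -0.16 for PLK2 to 0.17 for SESN1, with 14 genes higher and 13 lower. Their median was 0.010, beside 0.002 for all genes, and centring each array on its median turned the first of these to -0.0012. In 24 of the 27 (88.9%) the difference was smaller than the SD within groups, beside 82.2% of all genes.

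**Figure D1:**
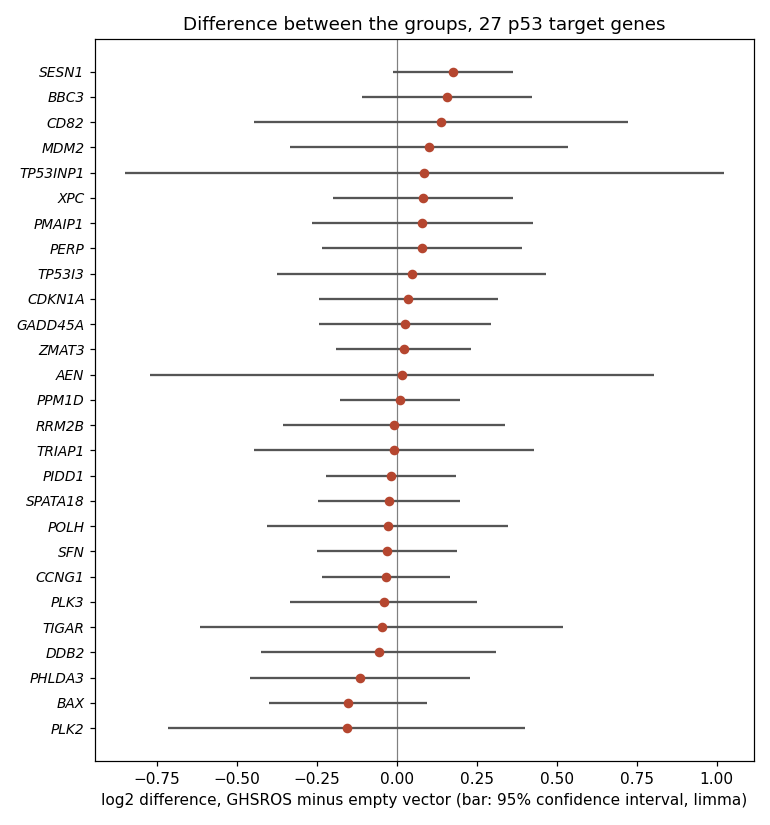
Log2 difference of each of 27 p53 target genes, GHSROS minus empty vector (horizontal axis), with its 95% confidence interval from limma (n = 3 arrays per group). All 27 intervals include 0, and the widest belong to TP53INP1 (-0.85 to 1.02) and AEN (-0.77 to 0.81).

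The intervals show what size of difference these arrays allow. For 22 of the 27 genes (81.5%) the 95% confidence interval lay within a 1.5-fold difference in either direction, beside 86.0% of all genes. The 22 include SPATA18, below the array medians, and SESN1, near them. At such levels a narrow interval need not bound the difference in transcript. For PLK2, CD82, TP53INP1, TIGAR and AEN the interval reached further. These 5 genes also varied most among the 6 arrays. In bulk RNA, fewer cells that express a gene and less of its RNA per cell cannot be told apart. The p-values measure the spread between cultures that the submitters call biological replicates.

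Only SESN1 had groups that did not overlap. SESN1, which encodes a sestrin that restrains the growth kinase complex mTORC1, was at 6.77, 6.79 and 6.82 in GHSROS cells, against 6.56, 6.64 and 6.66 in empty-vector cells. All GHSROS arrays lay above all empty-vector arrays, by a margin of about the range within the empty-vector group. The levels were near the array medians and overlapped those of CDKN2A (6.44 to 6.72). A reading at that level does not show that a transcript is present. The log2 difference was 0.17 (SE 0.08, adjusted p = 1 in limma), a 1.13-fold difference. One such gene among 27 sits beside 3.06% of all genes with GHSROS wholly above, and 0 of 27 beside 2.44% with GHSROS wholly below.

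Promoters were read for the p53 response element. Genes come to be listed as p53 targets partly because p53 binds near them, so the share of promoters with a match describes the list and is not independent of how it was made. The RefSeq promoter table (GRCh38.p14) held 300-base promoters, from 250 bases before to 50 bases after the start of transcription, for 23 of the 27 genes. A match was 2 adjacent decamers of the p53 consensus on either strand with no spacer and at most 3 mismatches, with the C and G that every decamer shares left intact. Such a match stood in 3 of the 23 promoters (13.0%), beside 1.07% of 27303 promoters in the table. All 3 matches are printed, those of AEN (2 mismatches), PMAIP1 (3) and SESN1 (3). Capitals mark the 20 bases of the match, each read 5′ to 3′ on the gene's strand and upstream of the start.
AEN, chr15:88621301-88621330, plus strand: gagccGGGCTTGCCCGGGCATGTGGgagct
PMAIP1, chr18:59899806-59899835, plus strand: gtcggGAGCGTGTCCGGGCAGGTCGcgctc
SESN1, chr6:109009013-109009042, minus strand: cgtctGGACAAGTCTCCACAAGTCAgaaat
A match describes the letters and does not show binding, and its absence from the other windows says only that those letters are not there.

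Among cell cycle genes, CDKN1A, which encodes the cyclin-dependent kinase inhibitor p21, was at 9.13, 9.49 and 9.17 in GHSROS cells, against 9.22, 9.30 and 9.17 in empty-vector cells. GHSROS array 2 was the highest and GHSROS array 1 the lowest, so the groups overlapped completely. The log2 difference was 0.04 (SE 0.12), with a 95% confidence interval from -0.24 to 0.32. PLK2, a stress-induced polo-like kinase, was at 11.37, 11.13 and 10.75 in GHSROS cells, against 10.85, 11.21 and 11.65 in empty-vector cells. Its lowest arrays were GHSROS 3 and empty vector 1, and its difference of -0.16 (SE 0.24) was less than the SD of either group. Among the others, CCNG1 (cyclin G1), SFN (14-3-3 sigma, which holds the mitotic kinase CDK1 in the cytoplasm) and GADD45A (a growth arrest gene) each spanned 0.29 or less over the 6 arrays. PLK3, a relative of PLK2, spanned 0.39, from 7.45 to 7.84.

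The groups overlapped in both feedback genes. MDM2, which encodes the ubiquitin ligase that marks p53 for destruction, was at 10.85, 10.84 and 10.33 in GHSROS cells, against 10.30, 10.65 and 10.76 in empty-vector cells. GHSROS array 3 and empty-vector array 1 lay together at the bottom, below the other arrays by 0.32, which is more than the difference between groups of 0.10 (SE 0.18). PPM1D, the phosphatase WIP1 that removes activating phosphates from p53, had the narrowest range of the 27 genes, 0.11, from 9.17 to 9.28.

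**Figure D2:**
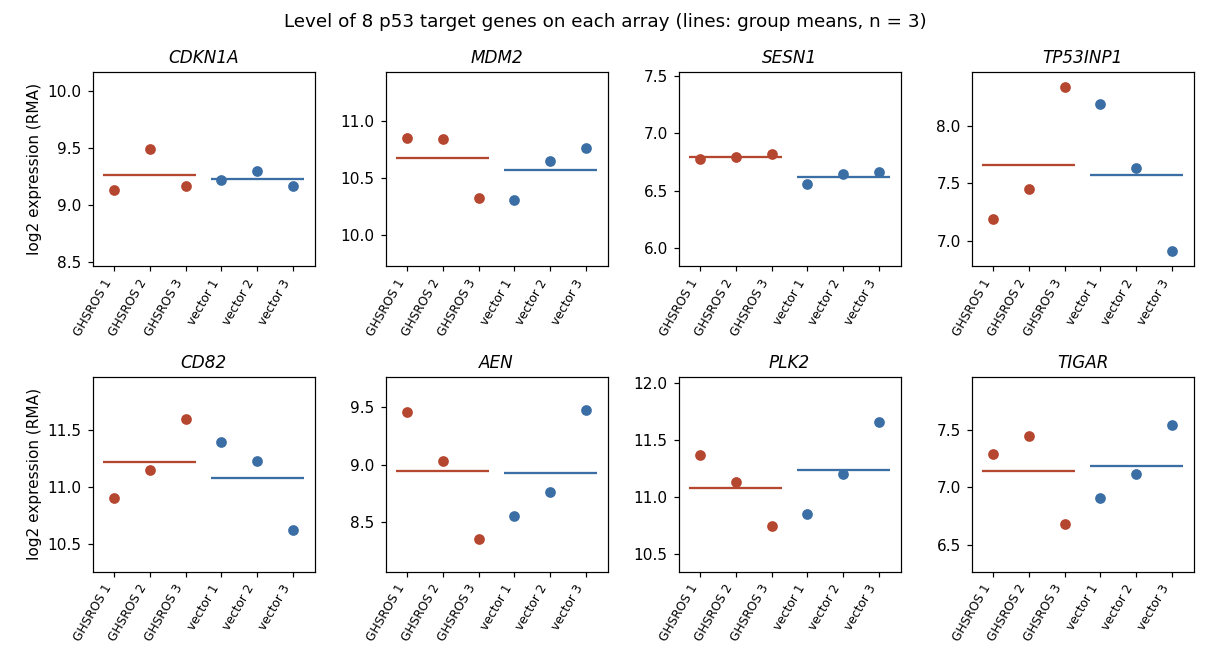
Log2 expression (vertical axis, each panel spanning 1.7 units) of 8 p53 target genes on the 3 GHSROS arrays (red, left) and the 3 empty-vector arrays (blue, right), with a line at each group's mean. SESN1 has separated groups, CDKN1A shows no order, and in the other 6 panels GHSROS array 3 and empty-vector array 1 lie together at the top or the bottom.

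Apoptosis genes held both the widest and some of the narrowest ranges. TP53INP1, a stress protein that promotes p53 phosphorylation and autophagy, was at 7.19, 7.45 and 8.34 in GHSROS cells, against 8.19, 7.63 and 6.90 in empty-vector cells. GHSROS array 3 and empty-vector array 1 stood 0.56 above the next array, and the full range of 1.44 was 2.71-fold and above that of 98.4% of all genes. The log2 difference between groups was 0.09 (SE 0.39). AEN, an apoptosis-enhancing nuclease, ran the other way, at 9.46, 9.03 and 8.35 in GHSROS cells, against 8.55, 8.76 and 9.48 in empty-vector cells. Its range of 1.12 was 2.18-fold, with the same arrays lowest, and the difference between groups was 0.02 (SE 0.33).

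The groups also overlapped in the mitochondrial arm of apoptosis. BAX, which forms the pore in the outer mitochondrial membrane, was at 10.36, 10.22 and 10.42 in GHSROS cells, against 10.50, 10.36 and 10.61 in empty-vector cells. GHSROS array 3 lay above empty-vector array 2, so the groups overlapped, and the difference was -0.15 (SE 0.10). BBC3, which encodes the BH3-only protein PUMA, was at 7.96, 7.70 and 8.04 in GHSROS cells, against 7.82, 7.72 and 7.68 in empty-vector cells. GHSROS arrays 1 and 3 were the highest and array 2 lay among the empty-vector arrays, with a difference of 0.16 (SE 0.11). PMAIP1, which encodes the BH3-only protein NOXA, spanned 10.63 to 11.09, with GHSROS array 3 and empty-vector array 1 highest, and a difference of 0.08 (SE 0.15).

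Of the remaining apoptosis genes, PHLDA3, a pleckstrin-homology protein that restrains AKT, was at 7.22, 7.35 and 7.73 in GHSROS cells, against 7.65, 7.54 and 7.44 in empty-vector cells. The GHSROS arrays held both its highest and its lowest value, and the difference was -0.12 (SE 0.14). PERP, a membrane protein of desmosomes, was at 10.75, 10.59 and 10.92 in GHSROS cells, against 10.88, 10.60 and 10.54 in empty-vector cells. Its groups overlapped, with a difference of 0.08 (SE 0.13). TRIAP1, a mitochondrial protein that holds back apoptosis, was at 10.27, 9.95 and 9.64 in GHSROS cells, against 9.76, 9.93 and 10.20 in empty-vector cells. GHSROS array 3 and empty-vector array 1 were again lowest, and the difference of -0.01 (SE 0.18) became 0.02 after quantile normalization. PIDD1, a scaffold that activates caspase-2, and ZMAT3, an RNA-binding zinc finger protein, spanned 0.16 and 0.20.

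Among the metabolic genes, TIGAR, a phosphatase that lowers glycolytic flux, was at 7.30, 7.45 and 6.68 in GHSROS cells, against 6.90, 7.12 and 7.54 in empty-vector cells. Its lowest arrays were GHSROS 3 and empty vector 1, and the difference was -0.05 (SE 0.24). TP53I3, a quinone oxidoreductase, was at 7.57, 7.29 and 7.82 in GHSROS cells, against 7.77, 7.26 and 7.52 in empty-vector cells. Here the same arrays were highest, and the difference was 0.05 (SE 0.18).

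XPC and DDB2, the damage sensors of nucleotide excision repair, had the same empty-vector arrays at opposite ends: XPC was highest on array 1 and lowest on array 2, and DDB2 highest on array 2 and lowest on array 1. XPC was at 7.10, 7.30 and 7.22 in GHSROS cells, against 7.34, 6.98 and 7.07 in empty-vector cells. The groups overlapped, and the difference was 0.08 (SE 0.12). DDB2 was at 8.97, 8.94 and 8.73 in GHSROS cells, against 8.63, 9.18 and 9.01 in empty-vector cells. Its lowest arrays were empty vector 1 and GHSROS 3, and the difference was -0.06 (SE 0.15). POLH, the polymerase that copies past ultraviolet lesions, spanned 10.09 to 10.61, and RRM2B, a subunit of ribonucleotide reductase, 8.38 to 8.82.

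CD82, a tetraspanin known as a suppressor of metastasis, had the third widest range. It was at 10.91, 11.15 and 11.60 in GHSROS cells, against 11.39, 11.22 and 10.62 in empty-vector cells. GHSROS array 3 and empty-vector array 1 were highest, the range of 0.97 was 1.96-fold, and the difference between groups was 0.14 (SE 0.25).

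Ranges within groups were set beside the differences between groups. The median range within the 3 GHSROS arrays was 0.34 and within the 3 empty-vector arrays 0.32, beside 0.26 and 0.27 for all genes. In 24 of the 27 genes (88.9%) the ranges within both groups exceeded the difference between the groups, a share near the 85.4% of all genes. In SESN1 both ranges were smaller than the difference. Over the 6 arrays the median range was 0.393, a 1.31-fold spread, beside 0.375 for all genes. Of the 27 genes, 5 (18.5%) had a range within the widest 10.0% of all genes.

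One pair of arrays recurred at the ends of these ranges. For each gene the 2 highest and the 2 lowest arrays were noted, over all 15 possible pairs. GHSROS array 3 and empty-vector array 1 were the 2 highest in 9 of the 27 genes and the 2 lowest in 11, together 20 of 27 (74.1%). Among all genes tested the same pair was at either end in 39.3%. The next pair, GHSROS array 1 with empty-vector array 3, was at either end in 10 of the 27 (37.0%), beside 28.7% of all genes. Of the 27 genes, 22 were at or above the median level of all genes. All genes include many dimmer ones, and no share among genes of like level was taken, here or for the lists below. These counts describe 6 arrays, since genes of one array are not independent. The pair of GHSROS array 3 and empty-vector array 1 was already known from earlier results to stand apart.

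**Figure D3:**
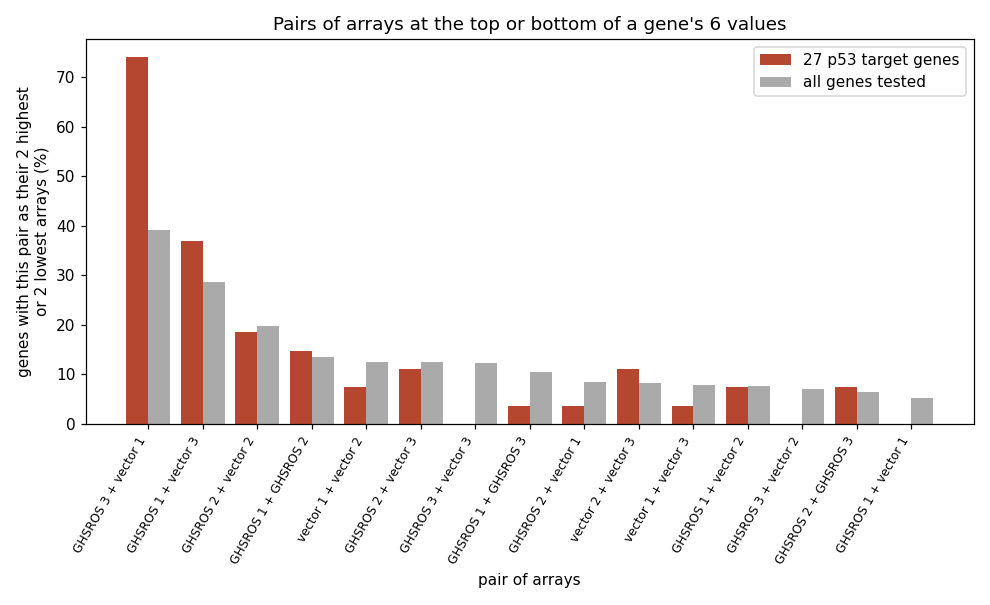
Percentage of genes (vertical axis) for which each of the 15 pairs of arrays (horizontal axis) held the 2 highest or the 2 lowest of 6 values, for the 27 p53 target genes (red) and all 18378 genes tested (grey). The pair of GHSROS array 3 and empty-vector array 1 reached 74.1% of the p53 targets and 39.3% of all genes.

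The p53 targets split at that pair in opposite directions, as did all genes. It was highest in 33.3% of the p53 targets and lowest in 40.7%, beside 18.9% and 20.3% of all genes. Highest there were PHLDA3, PERP, PMAIP1, SPATA18 and TP53INP1 of the apoptosis genes, with CD82, PLK3, TP53I3 and RRM2B. Lowest there were both feedback genes, MDM2 and PPM1D, with PLK2, SFN, GADD45A, DDB2, POLH, TIGAR, ZMAT3, AEN and TRIAP1. SESN1, BAX, BBC3, XPC, CCNG1, CDKN1A and PIDD1 had other arrays at both ends. The gap from the pair to the next array ran from 0.018 for RRM2B to 0.56 for TP53INP1, with a median of 0.17, so several of these positions rest on small differences.

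**Figure D4:**
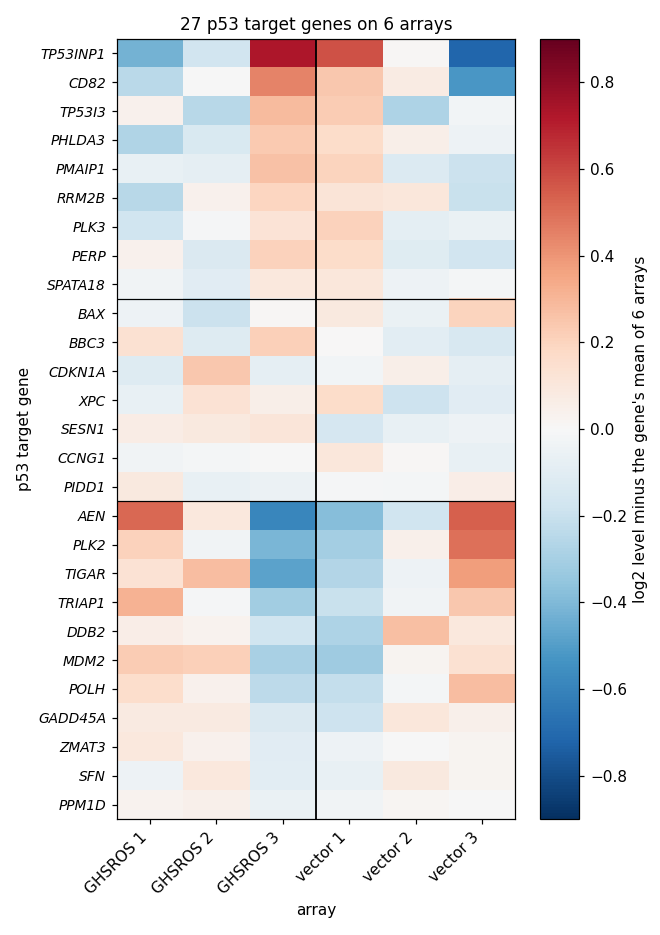
Log2 level of each p53 target gene (rows) on each array (columns, GHSROS left of the black line and empty vector right) minus the gene's mean of 6 arrays. The top block holds the 9 genes highest on GHSROS array 3 and empty-vector array 1, the bottom block the 11 genes lowest there, and the middle block the other 7.

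With genes on both sides, the mean level of the 27 was nearly flat. It was 9.06, 9.04 and 9.04 on the GHSROS arrays, against 9.04, 9.02 and 9.04 on the empty-vector arrays, a range of 0.034. The mean of all genes had a range of 0.035, but RMA usually removes shifts shared by most genes, so this is no reference for the 27. The means of the p53 regulators and the further p53 targets described below had ranges of 0.12 and 0.18. The mean of the 27 does not show that TP53INP1 and AEN each spanned more than 2-fold over the same arrays.

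Other genes of the pathway were set beside them from lists written down for this comparison. Of 26 regulators of p53, 23 were measured, 8 higher and 15 lower with GHSROS, and 0 passed. The recurring pair of arrays was at either end in 10 of the 23 (43.5%), near the 39.3% of all genes. MDM4, the partner of MDM2 that masks the activation domain of p53, was at 8.23, 8.66 and 8.37 in GHSROS cells, against 8.42, 8.47 and 8.29 in empty-vector cells, with no order between the groups. CHEK2, a checkpoint kinase that phosphorylates p53, differed by -0.20 (SE 0.12) and PPP1R13B, which encodes the p53-binding protein ASPP1, by 0.13 (SE 0.09). The damage kinases ATM and ATR varied most in this list, by 0.92 and 0.83, and in opposite directions: on GHSROS array 3 ATM was at 10.01, its second highest value, and ATR at 8.35, its lowest.

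Of 50 further p53 targets, 47 were measured, 23 higher and 24 lower, and 0 passed. TGFA, a ligand of the EGF receptor, differed by -0.34 (SE 0.16) and BID, a BH3-only protein, by -0.17 (SE 0.10). GDF15, a stress-induced cytokine, was at 9.57, 9.47 and 12.20 in GHSROS cells, against 11.83, 9.82 and 8.89 in empty-vector cells. It was highest on GHSROS array 3 and empty-vector array 1, over a range of 3.32, and the difference between groups was 0.24 (SE 0.95). TRIM22, an interferon-induced gene, varied by 1.17 and differed between groups by -0.42 (SE 0.26). The recurring pair of arrays was at either end in 29 of these 47 genes (61.7%), highest in 18 and lowest in 11, beside 39.3% of all genes.

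Genes known to fall when p53 and p21 engage the DREAM repressor complex were low together on those arrays. All 19 measured had GHSROS array 3 and empty-vector array 1 as their 2 lowest, beside 20.3% of all genes. The list was chosen with that pair already known to stand apart. CDKN1A was at 9.17 on GHSROS array 3 and 9.22 on empty-vector array 1, with other arrays at both ends. The list is made of cell cycle and DNA replication genes. Whether p53, p21 or the share of dividing cells had a part in the low levels was not tested. The list means were 11.13, 11.03 and 10.23 on the GHSROS arrays, against 10.16, 10.92 and 11.16 on the empty-vector arrays. Between the groups 14 were higher and 5 lower, and 0 passed. RRM2, like RRM2B a subunit of ribonucleotide reductase, varied most, by 1.72, and CDC20, an activator of the anaphase-promoting complex, by 1.55. MCM5 and E2F1, of DNA replication and S-phase entry, differed between groups by -0.12 (SE 0.14) and 0.11 (SE 0.17).

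Genes of ATF4, the factor of amino acid stress that also acts on some p53 targets such as PMAIP1, ran opposite to the DREAM genes. Of 12 measured, 4 were higher and 8 lower with GHSROS, and 0 passed. Their mean was 8.71, 8.89 and 9.80 on the GHSROS arrays, against 9.74, 9.22 and 8.58 on the empty-vector arrays. On the recurring pair 9 of the 12 (75.0%) were highest, beside 18.9% of all genes. ATF4 itself, PHGDH and ATF3 were not. PHGDH was read by a probe set that also names MZT2B. Like the DREAM list, the ATF4 list was chosen with that pair already known to stand apart. CHAC1, which degrades glutathione, varied by 2.66 and DDIT4, an inhibitor of mTORC1, by 2.51. DDIT3 and ATF3, stress transcription factors, differed between groups by -0.16 (SE 0.31) and 0.03 (SE 0.09). SESN2 and ATF3 stood on both this list and that of the further p53 targets.

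**Figure D5:**
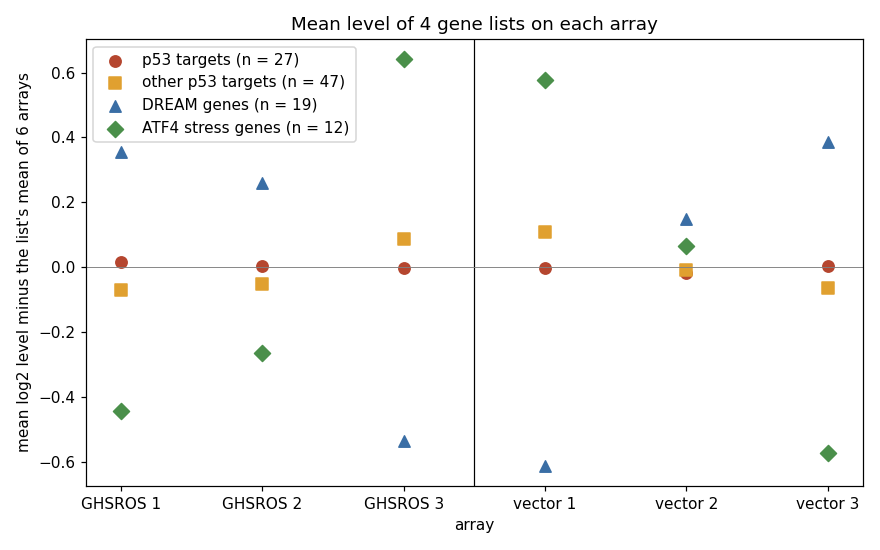
Mean log2 level of 4 gene lists on each array minus the list's mean of 6 arrays (vertical axis), GHSROS arrays left of the line and empty-vector arrays right. The mean of the 27 p53 targets stays within a range of 0.034 (all genes, not drawn, 0.035). The DREAM genes are low and the ATF4 stress genes high on GHSROS array 3 and empty-vector array 1.

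Of the 4 endothelial markers, KDR was at 7.77, 7.68 and 9.10 in GHSROS cells, against 8.81, 7.30 and 7.20 in empty-vector cells, highest on the same pair. CDH5 (6.65 to 7.32) was also above the array median on every array, though its lowest reading lay within the range of CDKN2A. PECAM1 (5.57 to 6.50) and VWF (5.14 to 5.39) were below the median. CDH5 and PECAM1 were highest on GHSROS array 3 and next highest on empty-vector array 2. The list mean ran from 6.45 to 7.08 on the GHSROS arrays, against 6.21 to 6.85 on the empty-vector arrays, and the part of other cells in the spread among arrays was not tested. With both arrays of the recurring pair left out, a choice made after the data were seen, 0 of the 27 p53 targets and 0 of all genes passed. At this setting 17 of the 27 were higher with GHSROS, and the share of all genes that were higher was not taken. The median log2 difference was 0.039 for the 27 and -0.006 for all genes.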

How the data were processed

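RNA of 6 MDA-MB-231 cultures was measured on Affymetrix arrays, 3 with GHSROS and 3 with the empty vector, grouped by sample title. Per the submitters' processing notes, the authors summarised the arrays with RMA, and the deposited table holds log2 values for each probe set. The sources used here give neither its version nor its settings. Quantile normalization, a usual step of RMA, removes shifts shared by most genes. Of 28869 probe sets, 19310 carried 1 symbol, 1752 several and 7807 none in the platform annotation. The brightest probe set per gene over 6 arrays was kept, with no filter on level. Probe sets with several symbols were used only for genes on the lists, and none of the 27 p53 targets needed one. PHGDH was read by one shared with MZT2B, and TNFRSF10C by one shared with LOC254896. Groups were compared with limma 3.58.1 in R 4.3.3 (lmFit and eBayes, two-sided, Benjamini-Hochberg over 18378 genes, threshold 0.05). The script was tested on simulated data. The genes and lists were chosen with earlier results of these data known. Values on every array are given for CDKN1A, MDM2, the 8 genes with the smallest p and the 8 with the widest range. In the lists of regulators, further p53 targets, DREAM genes and ATF4 genes, the 2 with the smallest p and the 2 with the widest range are named. Cell type markers were not named by that rule. The alternatives were the replicate block, median centring, quantile normalization, filters on level (median or 25th percentile), other choices of probe sets, a trended robust prior, array weights and leaving out arrays. Array values carry no read depth, and 3 arrays per group limit the precision.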

Additional observations from a re-analysis of the deposited data

How the results depend on the processing

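Under every alternative run, 0 of the 27 p53 targets and 0 of all genes passed an adjusted p of 0.05 in limma. These were the replicate block, quantile normalization, median centring, the filters on level, the choices of probe sets, the trended prior, array weights and each array left out. Without GHSROS array 2, 1 of the 27 p53 targets was at an unadjusted p under 0.05 in limma, beside 359 of all 18378 genes. With the replicate number as a block 0 were called. Same-numbered arrays correlated at -0.71, 0.50 and -0.67 in their deviations from the group means across genes, so they were not alike throughout. These values cannot show whether same-numbered cultures were handled together. The median log2 difference, 0.010, was 0.034 after quantile normalization, -0.0012 after median centring, 0.039 with empty-vector array 1 and GHSROS array 3 left out, and -0.010 to 0.011 with single arrays left out. The median range among arrays was 0.425 after quantile normalization. Directions turned after quantile normalization for PIDD1 (0.0086), RRM2B (0.020) and TRIAP1 (0.016), and after median centring for PPM1D (-0.0012). With array weights they turned for CD82 (-0.078), PIDD1 (0.022), POLH (0.071), TIGAR (0.12), TP53INP1 (-0.19) and TRIAP1 (0.14). With empty-vector array 1 and GHSROS array 3 left out they turned for CCNG1 (0.0023), TIGAR (0.039) and TRIAP1 (0.046). Leaving out single arrays turned the direction of 22 of the 27, and it held for SESN1, BAX, BBC3, PHLDA3 and XPC. The 22 ranges of log2 difference were AEN -0.24 to 0.31, CCNG1 -0.076 to 0.010, CD82 -0.090 to 0.29, CDKN1A -0.077 to 0.10, DDB2 -0.21 to 0.062, GADD45A -0.062 to 0.095, MDM2 -0.033 to 0.27, PERP -0.0068 to 0.18, PIDD1 -0.069 to 0.0099, PLK2 -0.35 to 0.051, PLK3 -0.11 to 0.053, PMAIP1 -0.034 to 0.20, POLH -0.15 to 0.10, PPM1D -0.010 to 0.043, RRM2B -0.11 to 0.11, SFN -0.086 to 0.010, SPATA18 -0.080 to 0.021, TIGAR -0.20 to 0.18, TP53I3 -0.085 to 0.18, TP53INP1 -0.25 to 0.39, TRIAP1 -0.17 to 0.15, ZMAT3 -0.022 to 0.079. The cause was not tested. Under filters on level the dim genes left out gave no value. The number of arrays limits what differences can be seen.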
